A study of Mus musculus with 4 samples.

Results

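Transcripts of the ETS family of transcription factors were followed in a mouse microglial line, the immortalised BV2 cells, whose labels give a CRISPR-Cas9 knockout of PU.1. Of the 24411 gene symbols counted, 10 were taken by symbol: Spi1, which encodes PU.1, its closest relatives Spib and Spic, and the further family genes Ets2, Etv3, Erf, Elf1, Elf2, Elf4 and Fli1. All 10 have a row in the count files. Another 16 ETS genes served for comparison. Both groups carry the knockout: 2 libraries came from cells given 10 ng/ml of the bacterial cell wall component lipopolysaccharide (LPS), which TLR4 senses, and 2 from untreated cells. The LPS exposure is 2 h by the source name and 4 h by the title, and the time was not settled here. Whether the edited line is a single clone, and whether libraries of a group came from separate cultures, is not stated in the labels. The p-values therefore measure the spread between these libraries, which may be technical. Unedited cells were not analysed here, so the comparison addresses the response of the edited cells to LPS and not the edit.

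ETS factors share a winged helix-turn-helix domain that binds DNA around a GGAA core, and differ in their partners and in whether they activate or repress. PU.1 opens chromatin at myeloid enhancers and is needed for macrophages and microglia to form. It binds with partners such as IRF8 and C/EBP proteins and drives genes such as the CSF1 receptor. ETS2 and ERF lie downstream of ERK kinases, which activate ETS2 and move the repressor ERF out of the nucleus.

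Gene counts totalled 3256197 and 3749159 reads in the LPS libraries and 4502105 and 4115011 in the untreated libraries. Microglial and macrophage markers had counts in 12 of 12 cases, with a summed level of 3340 to 3520 CPM (read counts divided by the TMM-scaled library size, edgeR's CPM) in LPS and 2360 to 2380 CPM in untreated libraries. Of the 11 tested, 7 rose and 2 fell, where 26.6% of all genes tested rose and 25.3% fell. The markers were listed with earlier results of these data known, so the counts are a description only. Tmem119 stood at 5.46 ± 0.863 CPM in LPS and 19.1 ± 4.28 CPM in untreated libraries (SD, n = 2 each), and P2ry12 had 1 and 0 reads in LPS and 12 and 7 in untreated libraries. The T cell markers Cd3e, Cd3d, Cd3g and Cd4 had no reads while Lck had 21 and 21 in LPS and 14 and 5 in untreated libraries, and 1 of 5 B cell markers had any (Cd79b, 0 and 1 read in LPS and 1 and 0 in untreated libraries). Summed neutrophil markers reached 0.911 to 1.04 CPM in LPS and 0.382 to 0.663 CPM in untreated libraries, and fibroblast and astrocyte markers at most 0.304 CPM. All 6 genes of an LPS response check rose, with a median log2 fold change of 8.97 (Irg1, Il1b, Ccl2 and Cxcl10 among them). In bulk RNA a lower level can mean fewer cells of a type or less RNA per cell, and these cannot be told apart.

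Promoters from RefSeq (GRCm38.p6) were available for 8 of the 10 genes, in 11 windows of 250 bases ending at the RefSeq start site. The GENCODE vM21 annotation starts Ets2 before its window (at 95702075) and Etv3 within its window (at 87525407). By that annotation the Ets2 window and part of the Etv3 window lie inside the gene. The same holds for some of the other windows, among them that of Spic. Spi1 and Fli1 had none. Windows of Ets2 and Etv3, which rose after LPS, and of Erf, which fell, are shown to set the family's own binding core beside genes that moved in both directions. They read 5′ to 3′ on the strand of the gene, with capitals marking GGAA on either strand (TTCC where it lies on the other).
Ets2, chr16:95702157-95702406, plus strand: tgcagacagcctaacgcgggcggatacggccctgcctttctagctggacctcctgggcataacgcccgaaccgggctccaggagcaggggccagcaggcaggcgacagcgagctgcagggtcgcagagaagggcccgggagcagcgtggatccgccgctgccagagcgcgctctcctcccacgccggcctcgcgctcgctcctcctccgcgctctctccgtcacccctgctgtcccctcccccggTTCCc
Etv3, chr3:87525328-87525577, plus strand: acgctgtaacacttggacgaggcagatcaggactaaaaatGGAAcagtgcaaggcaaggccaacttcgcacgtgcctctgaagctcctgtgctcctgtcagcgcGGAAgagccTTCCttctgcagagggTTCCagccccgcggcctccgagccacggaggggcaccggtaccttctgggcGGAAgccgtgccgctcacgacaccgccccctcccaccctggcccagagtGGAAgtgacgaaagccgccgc
Erf, chr7:25250759-25251008, minus strand: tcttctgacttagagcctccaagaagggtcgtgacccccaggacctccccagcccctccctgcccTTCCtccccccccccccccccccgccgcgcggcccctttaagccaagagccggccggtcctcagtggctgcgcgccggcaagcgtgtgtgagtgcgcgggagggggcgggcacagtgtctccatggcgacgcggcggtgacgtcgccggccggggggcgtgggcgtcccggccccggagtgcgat
Etv3 held 6 such cores, and Ets2 and Erf 1 each. A GGAA core is found on either strand in 93.4% of all 32851 promoter windows of this length, so its presence sets none of the 3 apart. A kappa B pattern, GGG and CC with 5 bases between them, occurs in 45.8% of windows. It was matched once in Erf and not in the windows of Ets2, Etv3 or Spic. Spib had 3 matches, and every window of Elf1, Elf2 and Elf4 had at least 1. The longer PU.1 pattern GAGGAAGT (2.44% of windows), the ETS-IRF pattern of GGAA and GAAA with 2 bases between them (2.3%) and the cyclic AMP element TGACGTCA (1.55%) had no match in the 11 windows. The AP-1 pattern TGANTCA (6.75%) matched in 1 window each of Elf1, Elf2 and Elf4. Patterns were searched on both strands and may overlap, and a match describes letters and not a bound site.

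After LPS, 3 of the 10 genes rose, 3 fell, 2 were tested and did not pass, and 2 had too few reads to test. The risers were Ets2, Etv3 and Spi1, and the fallers Erf, Elf2 and Fli1, at an adjusted p below 0.05 in edgeR's quasi-likelihood test across 9992 genes. Of all genes tested, 51.9% changed, with 26.6% higher and 25.3% lower. With 8 genes, a count of 6 shows nothing particular to the family beside that background. The CPM of the groups did not overlap for 6 of the 8 tested genes, against 75.1% of all genes. The median log2 fold change was -0.08 over the 8 genes and 0 over all genes, and the median size of the change, without its sign, was 0.77 and 0.42. At 2-fold or more, Ets2 was higher (9.47% of all genes) and Erf lower (7.73%).

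**Figure D1:**
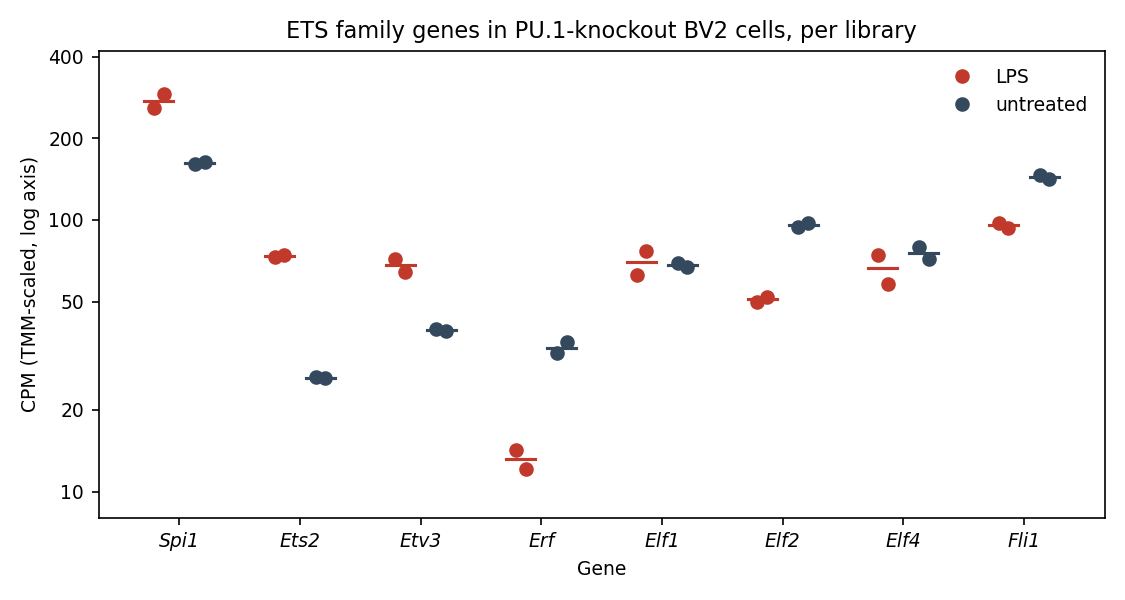
CPM (log axis) of the 8 tested ETS genes, with a point for each of the 2 LPS and 2 untreated libraries and a bar at the mean. Spi1, Ets2 and Etv3 lie higher and Erf, Elf2 and Fli1 lower in both LPS libraries, while the groups of Elf1 and Elf4 overlap. Spib, with no read, and Spic, with 1 read in all, are not drawn.

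Spi1, the gene targeted by the edit, lies on chromosome 2 (91082390 to 91115756, plus strand, GRCm38 in GENCODE vM21) and was read in every library. It had 745 and 958 reads after LPS, against 844 and 743 reads in untreated cells. Divided by the TMM-scaled library size, that is 258 and 291 CPM after LPS and 161 and 164 CPM in untreated cells. Both LPS libraries were above both untreated ones, and the 4 LPS to untreated ratios ran from 1.57 to 1.8. The log2 fold change was 0.75 (SE 0.09, edgeR adjusted p = 8.8e-10), higher than that of 86.4% of the genes tested. Gene counts carry no position within the gene, so a small insertion or deletion cannot be seen in them. The increase was 0.4 on the log2 scale with libraries scaled by size alone and 1.13 after correction for GC content, and it passed the test under both.

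Reads of the closest relatives of PU.1 were at or near 0. Spib, a factor of B cells and plasmacytoid dendritic cells, had no read in any library, which allows up to 1.04 and 0.911 CPM in the LPS and 0.574 and 0.663 CPM in the untreated libraries (3 reads, counting error only). Spic, needed for iron-recycling red pulp macrophages of the spleen, had 0 and 1 read after LPS and none in untreated cells. Neither could be compared between groups.

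Ets2, an activator that ERK kinases phosphorylate, had the largest increase among the 16 ETS genes tested. It stood at 72.8 and 74.4 CPM after LPS and at 26.4 and 26.1 CPM in untreated cells. The libraries of each group nearly coincided and the groups lay far apart, with ratios of 2.76 to 2.85. Its log2 fold change was 1.49 (SE 0.13, edgeR adjusted p = 8.2e-14), above that of 94.2% of all genes.

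Etv3 and Erf encode repressors of one branch of the family and moved in opposite directions. Etv3, known as a brake on macrophage proliferation, had 72.1 and 64.4 CPM after LPS and 39.8 and 39.1 CPM in untreated cells (log2 fold change 0.79, SE 0.13, edgeR adjusted p = 7.8e-07). Erf, the ERK-controlled repressor, had 14.2 and 12.1 CPM after LPS and 32.3 and 35.4 CPM in untreated cells (-1.36, SE 0.18, adjusted p = 1.5e-08). Neither gene's groups overlapped. Erf rested on 41 and 40 reads after LPS and on 169 and 160 in untreated cells, and its LPS reads were the fewest among the 8 tested genes.

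The ratio of 2 genes' reads within a library does not depend on how libraries are scaled, and its change does not depend on gene length. Correction for GC content acts on each gene and can move such a ratio, and it was not applied to the ratios. After that correction the log2 fold changes were 0.85 for Etv3 and -0.96 for Erf. Etv3 to Erf was 5.07 and 5.3 in the LPS and 1.23 and 1.11 in the untreated libraries, a 4.44-fold change. Every LPS library was above every untreated one, and the exact permutation test, two-sided, gave p = 0.333, the smallest that 2 libraries against 2 allow (0.333 also after adjustment over the 3 ratios computed). The 3 pairs were picked with their values in view.

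The ELF genes split as well. Elf1, expressed in blood cells and active at lymphoid genes, had 62.7 and 76.8 CPM after LPS and 69.2 and 67.2 CPM in untreated cells. The LPS values enclosed the untreated ones, and the gene was not called, at a log2 fold change of 0.04 (SE 0.12) and an edgeR adjusted p of 0.82. It passed as lower with library size scaling (-0.32, adjusted p = 0.0246). Its sign was also negative, without a call, with upper quartile scaling, after GC correction and without LPS replicate 2.

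Elf2, a close relative of Elf1 with activating and repressing isoforms, had 49.9 and 52.2 CPM after LPS and 94.5 and 97.3 CPM in untreated cells. The groups lay far apart, and Elf2 fell by 0.91 on the log2 scale (SE 0.12, edgeR adjusted p = 7.2e-09), with 9.32% of all genes lower still. The Elf1 to Elf2 ratio of reads was 1.26 and 1.47 in the LPS and 0.733 and 0.691 in the untreated libraries, 1.91-fold higher (exact permutation p = 0.333, the smallest possible). Elf1 shares 327 exon bases with Wbp4 and Elf2 371 with 4930577N17Rik, both on the opposite strand. The stranded counts separate the strands, and opposite-strand reads of Elf1 numbered 4 in LPS and 9 in untreated libraries.

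Elf4, a factor that takes part in antiviral interferon induction, had 74.5 and 58.3 CPM after LPS and 79.6 and 71.7 CPM in untreated cells. Its groups overlapped and it was not called, at a log2 fold change of -0.2 (SE 0.12) and an edgeR adjusted p of 0.18. It passed as lower with library size scaling (-0.55, adjusted p = 6.82e-05), with upper quartile scaling (-0.29, 0.0433) and without LPS replicate 1 (-0.38, 0.0126).

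Fli1, a factor of megakaryocytes, endothelium and blood stem cells, had 97.4 and 93.8 CPM after LPS and 147 and 141 CPM in untreated cells. Both LPS libraries were below both untreated ones, and Fli1 fell by 0.59 on the log2 scale (SE 0.1, edgeR adjusted p = 2.1e-06). The ratio of Spi1 to Fli1 reads was 2.65 and 3.1 in the LPS and 1.09 and 1.17 in the untreated libraries, 2.54-fold higher (exact permutation p = 0.333, the smallest possible). Of 6 endothelial markers, Pecam1, Tek and Tie1 had no read and Cdh5 had 1. Kdr stood at 28.4 ± 2.43 CPM after LPS and 14.5 ± 0.539 CPM in untreated cells (SD, n = 2 each) and Vwf was not called, with a summed level of 34 to 49.9 CPM after LPS and 22.8 to 23.2 CPM in untreated cells. Their part in the result was not tested.

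**Figure D2:**
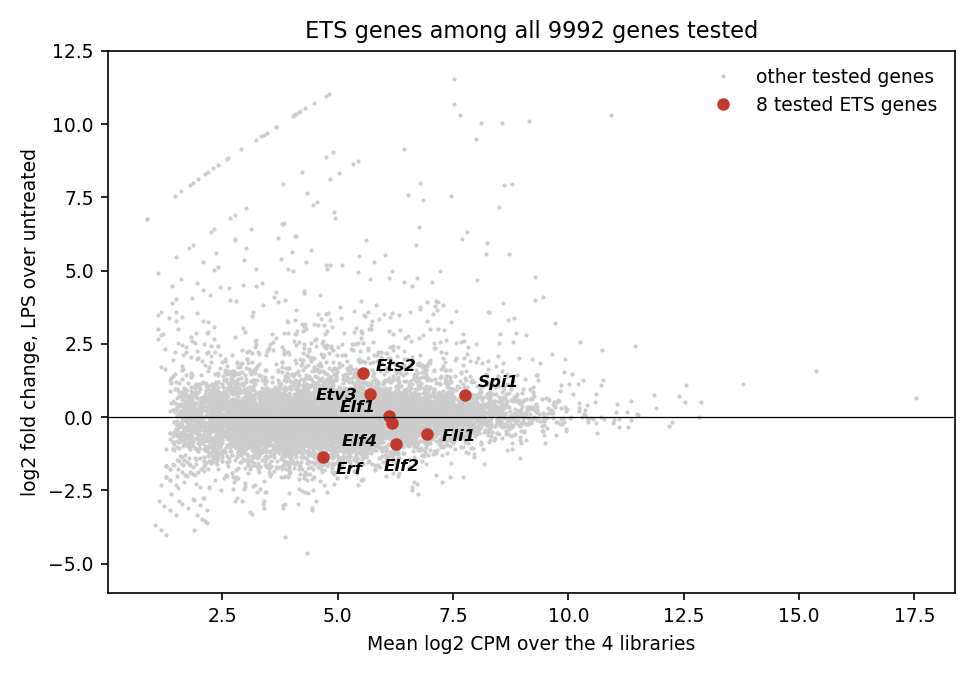
Log2 fold change of LPS over untreated against mean log2 CPM for the 9992 genes tested (grey), with the 8 tested ETS genes in red. The ETS genes lie within the cloud of all genes, between -1.36 (Erf) and 1.49 (Ets2), well short of the most strongly induced genes.

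Of the 16 other ETS genes, 9 had any read, 8 were tested, 1 rose and 2 fell. Beside the 26.6% higher and 25.3% lower among all genes tested, these counts show nothing particular to the other ETS genes. Gabpa, the DNA-binding subunit of GA-binding protein, rose to 86.6 and 74.7 CPM after LPS, against 53.2 and 64.6 CPM in untreated cells (log2 fold change 0.46, SE 0.12, edgeR adjusted p = 0.0017). That call was lost with library size scaling (log2 fold change 0.1), with DESeq2 (adjusted p = 0.055), after GC correction (adjusted p = 0.127) and without untreated replicate 1 (adjusted p = 0.131). Etv1 and Etv5 belong to the PEA3 branch. Etv1 fell to 7.28 and 4.86 CPM after LPS, against 18.9 and 23 CPM in untreated cells (log2 fold change -1.79, SE 0.25, edgeR adjusted p = 3.7e-08). Etv5 fell to 29.8 and 26.1 CPM after LPS, against 50.7 and 48.4 CPM in untreated cells (-0.83, SE 0.14, adjusted p = 3.1e-06). The third gene of the branch, Etv4, had 2.43 and 3.64 CPM after LPS and 5.16 and 3.32 CPM in untreated cells and did not pass (-0.48, SE 0.41, adjusted p = 0.34).

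The ternary complex factors, which bind with SRF at immediate early genes, did not pass either. Their log2 fold changes were 0.2 for Elk1, -0.35 for Elk3 and 0.27 for Elk4, with edgeR adjusted p from 0.28 to 0.35. Elk3 passed as lower with library size scaling (-0.71, adjusted p = 0.0275) and without LPS replicate 1 (-1.03, adjusted p = 0.0229), and Elk4 as higher without untreated replicate 1 (0.69, adjusted p = 0.0294). Etv6, which encodes a transcriptional repressor that acts in blood cell development, had a log2 fold change of 0.16 (adjusted p = 0.41). Ets1, the closest relative of Ets2, had 1 read in all, in untreated replicate 2. Erg, the closest relative of Fli1, had none, nor had Fev, Etv2, Elf3, Elf5, Ehf and Spdef. Elf3, Elf5, Ehf and Spdef are known as factors of epithelia.

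**Figure D3:**
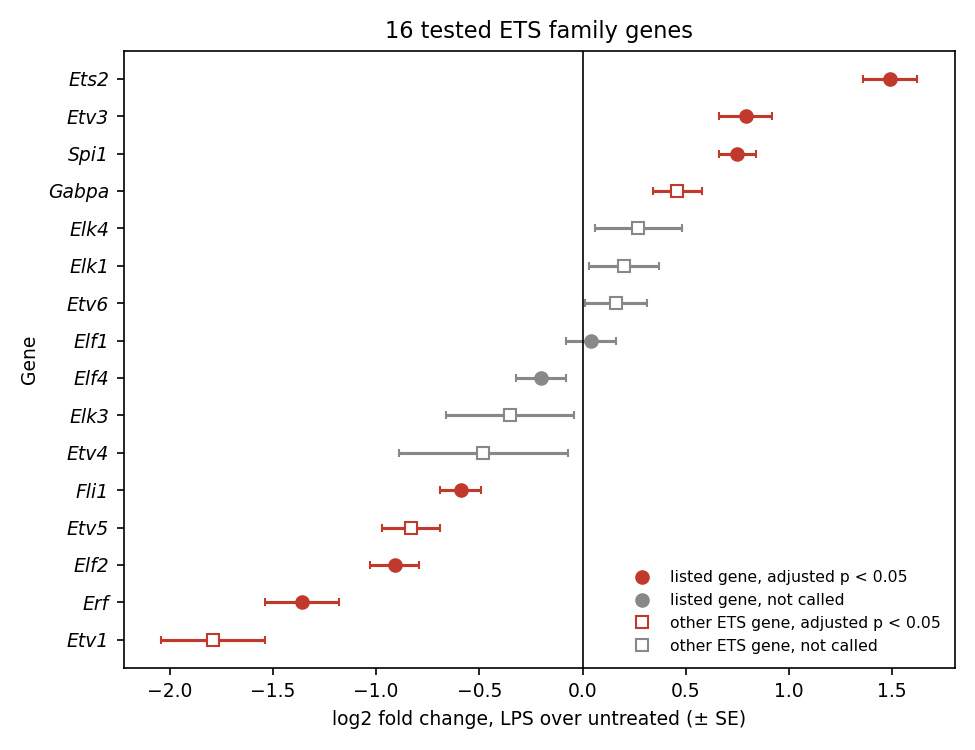
Log2 fold change of LPS over untreated with its SE for the 16 tested ETS genes, ordered from Etv1 (-1.79) at the bottom to Ets2 (1.49) at the top. Circles are the 8 genes described first and squares the other ETS genes, red where the edgeR adjusted p is below 0.05.

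To compare levels between genes, CPM was divided by the length of all GENCODE vM21 exons of the gene. No source used here gives the annotation behind the counts, so these lengths are approximate. By CPM per kilobase, Spi1 was the most abundant ETS transcript in every library, at 95.8 and 108 after LPS and 59.9 and 61 in untreated cells. Fli1 followed at 27.9 and 26.9 after LPS and 42.3 and 40.3 in untreated cells. The distance between the leading pair was 3.71-fold after LPS and 1.46-fold in untreated cells, and their ranges overlapped in neither group.

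Below them the order differed between the groups. After LPS came Gabpa (14.2 ± 1.49 CPM per kilobase), Ets2 (12.7 ± 0.196), Elf4 (10.8 ± 1.87), Elf1 (10.4 ± 1.48), Etv5 (6.81 ± 0.637), Etv3 (6.64 ± 0.531) and Elf2 (5.34 ± 0.171; SD, n = 2 each). Of these, Elf4 and Elf1 overlapped, as did Etv5 and Etv3. In untreated cells came Elf4 (12.3 ± 0.909), Etv5 (12.1 ± 0.387), Gabpa (10.4 ± 1.42), Elf1 (10.1 ± 0.21), Elf2 (10 ± 0.21) and Erf (9.39 ± 0.601), where Elf4 overlapped with Etv5, Gabpa with Elf1, Elf2 and Erf, and Elf1 with Elf2. Ets2 was at rank 4 after LPS and at rank 10 in untreated cells, Etv3 at 8 and 12, and Erf at 12 and 8. This order depends on the length used. With the longest transcript as length, Ets2 was at rank 3 after LPS and 9 in untreated cells, Elf1 at 4 and 4, Gabpa at 5 and 7, Etv3 at 7 and 11, Elf2 at 8 and 3, and Erf at 13 and 8, while Spi1 and Fli1 remained first and second in both groups.

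**Figure D4:**
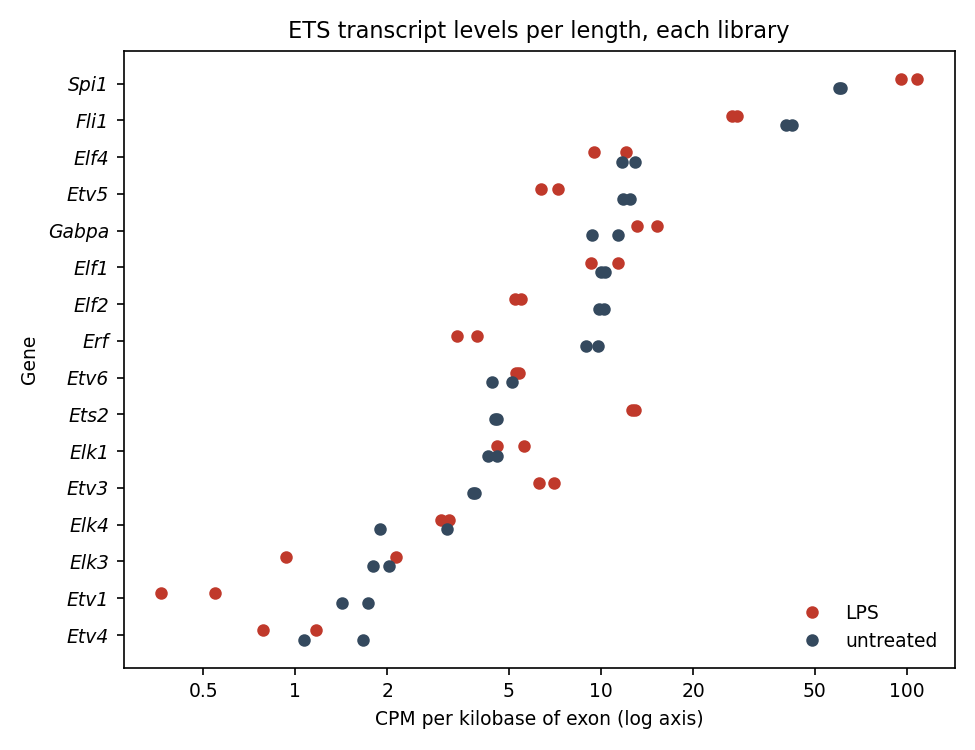
CPM per kilobase of exon (log axis) of the 16 tested ETS genes, with a red point for each LPS library and a dark point for each untreated library. Genes are ordered by the untreated mean, and Spi1 and Fli1 stand above the rest in both groups.

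Spi1 made up 47.1% ± 2.92 of the summed ETS level per kilobase after LPS and 31.6% ± 0.716 in untreated cells (SD, n = 2 each, exact permutation p = 0.333, the smallest possible). The share of Fli1 was 12.7% ± 0.615 after LPS and 21.6% ± 0.505 in untreated cells. Ets2 had a share of 5.89% ± 0.0391 after LPS and 2.38% ± 0.00488 in untreated cells. Erf had 1.69% ± 0.224 after LPS and 4.92% ± 0.364 in untreated cells. The sum over all 26 genes was 213 and 220 CPM per kilobase after LPS and 192 and 190 in untreated cells.

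Of 13 partner factors of PU.1, 6 could be tested, 2 rose and 2 fell, which beside the 51.9% called among all genes shows nothing particular to the partners. Cebpb, a C/EBP factor of inflammatory macrophages, was at 38.8 ± 5.45 CPM after LPS and 13.1 ± 0.687 CPM in untreated cells (log2 fold change 1.55, SE 0.17, edgeR adjusted p = 1.3e-10). Cebpa, which acts with PU.1 in myeloid commitment, was at 42.7 ± 3.1 CPM after LPS and 95.3 ± 7.6 CPM in untreated cells (-1.15, SE 0.12, adjusted p = 4.8e-11). Irf8, the IRF partner of PU.1 in microglia, was at 47.7 ± 0.346 CPM after LPS and 71.6 ± 12.6 CPM in untreated cells (-0.58, edgeR adjusted p = 0.00022). Jun, an AP-1 subunit, was at 56.6 ± 3.63 CPM after LPS and 41.7 ± 1.09 CPM in untreated cells (0.44, edgeR adjusted p = 0.0032), with SD and n = 2 each throughout. Runx1 and Cbfb did not pass. Without untreated replicate 2 the count fell to 2, as Irf8 (adjusted p = 0.0525) and Jun (adjusted p = 0.0576) were no longer called. Jun also lost its call with library size scaling (log2 fold change 0.08, adjusted p = 0.614) and with DESeq2, where the log2 fold change was still 0.44 (adjusted p = 0.0999).

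Among 22 genes known as PU.1 targets in macrophages, 21 were tested, 14 rose and 3 fell, where 26.6% of all genes rose and 25.3% fell. The median log2 fold change was 0.67 over the targets and 0 over all genes. The list was chosen with earlier results of these data known, so these counts describe the listed genes only. Whether PU.1 has a part in their change was not tested. The oxidase subunit gene Cybb was at 776 ± 14.4 CPM after LPS and 78.2 ± 3.24 CPM in untreated cells, 9.93-fold higher (edgeR adjusted p = 3.8e-33). Mpeg1, a pore-forming macrophage protein gene, was 5.91-fold higher, the integrin gene Itgam 4.6-fold and the Fc receptor gene Fcgr1 4.07-fold. The fallers were Laptm5 (log2 fold change -1.4), Btk (-0.69) and Csf1r (-0.21, adjusted p = 0.043).

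Of 5 genes listed for SPI-C and iron-recycling spleen macrophages, 4 were tested and 3 rose and 1 fell, against 51.9% called among all genes. Whether SPI-C has a part in their change was not tested. The heme oxygenase gene Hmox1 was 1.63-fold higher (311 ± 2.07 CPM after LPS, against 190 ± 8.8 CPM in untreated cells), Blvrb 2.15-fold and Treml4 4.57-fold, and the iron exporter gene Slc40a1 was lower (log2 fold change -0.8, edgeR adjusted p = 2.2e-05). Of 9 genes of the ERK route to ETS factors, 4 rose and 2 fell, which with 51.9% of all genes called is no result about the route. The kinase genes Map2k1 and Map2k2 moved apart, with log2 fold changes of 0.95 (adjusted p = 2.9e-11) and -0.73 (adjusted p = 4.4e-07). Mapk3 fell (-0.7) and Spred1, an inhibitor of the route, rose (0.77).

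A set of 5 genes was picked as nearest to Spi1 in their levels over the 4 libraries, out of 6250 with at least 20 CPM. They were Slc27a1, Dr1, Ctsd, Il10rb and Cd83, whose log2 values relative to their own mean differed from those of Spi1 by a root mean square of 0.0065 to 0.02. Their log2 fold changes were 0.73 to 0.75. With 4 libraries such closeness is a description only.

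**Figure D5:**
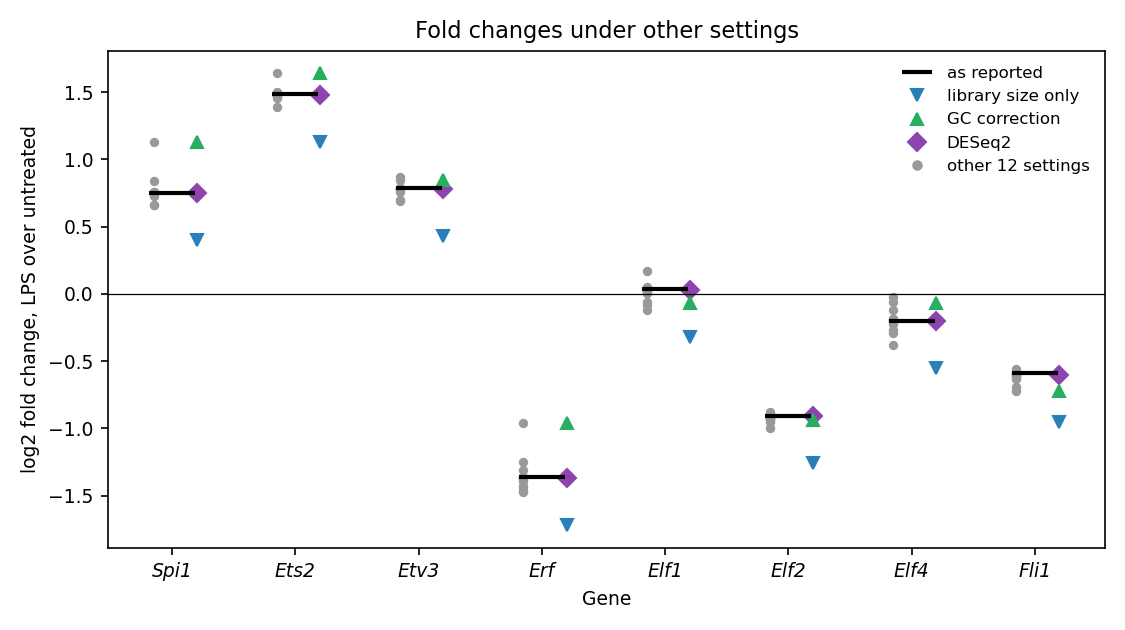
Log2 fold change of LPS over untreated for the 8 tested ETS genes as reported (black bars) and under 15 other settings (grey points and coloured symbols). Ets2, Etv3 and Spi1 stay above 0 and Erf, Elf2 and Fli1 below 0 under each, while Elf1 lies on both sides of 0 and Elf4 between -0.55 and -0.02.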

How the data were processed

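Ribosomal RNA was removed before strand-specific library construction, per the labels' protocols. The ribosomal entry Rn45s still made up 20.9% and 20% of gene counts in LPS and 14.6% and 19% in untreated libraries. Rn45s was among the 5 abundant entries left out in an alternative fit. Tools in the submitters' processing notes are STAR 2.5.1, Trimmomatic 0.33, CASAVA 1.8.2 and DESeq2. The notes also name hg19, a human build, although the organism and symbols are mouse. The authors deposited raw read counts per gene, neither normalised nor pooled, for each strand. The reverse-strand column was used, as it held 78.7 to 95.3 times the reads of the forward one. The 4 summary lines (67.2% to 72.9% of all reads) stayed out of library sizes and tests. Counts were filtered with filterByExpr, scaled by TMM and tested in R 4.3.3 with edgeR 4.0.16 (robust two-sided quasi-likelihood test of treatment alone), with Benjamini-Hochberg adjustment over 9992 genes and a threshold of 0.05. The SE is an approximation, the size of the log2 fold change over the root of F. On simulated data for this comparison (9872 genes) the test recovered 93 of 100 genes changed 2-fold and made 13 false calls in all. The simulation gave every gene the same dispersion and changed 200 genes above a minimum level, while 51.9% were called in the data. Its recovery therefore need not hold for these data. Replicates were kept separate, since a chi-square statistic over its degrees of freedom was 2.44 for LPS and 1.52 for untreated libraries. Members and lists were chosen with earlier results of these data known. Named are the 10 genes, the other ETS genes with reads, from each list at most 4 called genes, taken in order of p (where none was called, the 2 most abundant), and 5 genes nearest to Spi1, and any others were chosen after their values were seen. Alternatives were other scalings, DESeq2 1.42.0, other filters, unstranded counts, a replicate block, correction for GC content, a fit without 5 abundant entries and leaving out each library. Use of the longest transcript as gene length was added after the data were seen.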

Additional observations from a re-analysis of the deposited data

How the results depend on the processing

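The calls of Spi1, Ets2, Etv3, Erf, Elf2 and Fli1 kept their direction and their side of the threshold under all 15 alternatives, with log2 fold changes of 0.4 to 1.13, 1.13 to 1.64, 0.43 to 0.87, -1.72 to -0.96, -1.26 to -0.88 and -0.95 to -0.56. When libraries were scaled by their size only, the median over all genes was at -0.36 (log2), 5 of the 10 genes were lower instead of 3, 0 of the other ETS genes were higher instead of 1, and of all genes 1379 were higher and 4778 lower instead of 2659 and 2527, so that 22.4% of calls were higher instead of 51.3%. With DESeq2, 1760 genes were higher and 1405 lower, and 0 of the other ETS genes were higher, as was so after GC correction with or without the replicate block. The cause was not tested. Leaving out single libraries gave 2 to 5 changed partner factors. Elf1 was reversed at -0.06 with upper quartile scaling, -0.32 with library size scaling (called as lower), -0.07 after GC correction, -0.08 with GC correction and the replicate block, and its values without single libraries ran from -0.12 (without LPS replicate 2) to 0.17. With library size scaling Etv6 (-0.2), Elk1 (-0.16) and Elk4 (-0.09) were negative. Without single libraries Elk4 ran from -0.03 (without untreated replicate 2) to 0.69 (without untreated replicate 1), and Elk3 from -1.03 (without LPS replicate 1) to 0.15 (without LPS replicate 2). Elk4 was called at 0.69, and Elk3 at -1.03 and, with library size scaling, at -0.71, so that under both of these Elk3 settings 3 instead of 2 other ETS genes were lower. With the longest transcript as gene length Spi1 made up 33.8% of the untreated ETS level instead of 31.6%. With the replicate number as a block, the Spi1 log2 fold change was 0.75 and no call among the 16 tested ETS genes changed. The numbers do not pair the libraries by the labels, and same-numbered libraries deviated with a correlation of -0.044. At this depth Spib, Spic and 8 other ETS genes could not be compared.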
